A study of Homo sapiens with 4 samples.

Results

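The 8 linker histone H1 genes HIST1H1A, HIST1H1B, HIST1H1C, HIST1H1D, HIST1H1E, HIST1H1T, H1F0 and H1FX were examined in a list of regions from an open chromatin assay. A member of the list was taken to belong to a gene by its summit, the point of highest signal. The summit had to lie in the gene's span, rounded to kb, or within 5 kb of it in the hg19 genome. This gave 35 summits in 25 regions, of 371521 summits in 197823 regions in all. The set is labelled somatic, but HIST1H1T is known as the testis variant.

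Linker histone H1 binds the nucleosome where DNA enters and leaves it and helps to compact chromatin. HIST1H1A to HIST1H1E are replication-dependent genes: they lie among core histone genes on 6p22, have no introns and are transcribed mainly in S phase. H1F0 and H1FX lie alone on other chromosomes, are transcribed outside S phase as well, and give polyadenylated mRNAs. H1F0 encodes the variant known to accumulate in differentiated and resting cells.

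ATAC-seq, which marks open chromatin by the cuts of the transposase Tn5, was carried out on T47D-MTVL breast cancer cells. These carry 1 integrated luciferase reporter driven by the MMTV promoter, in all groups. An shRNA against multiple H1 variants was expressed in 2 samples labelled multiH1sh and a random shRNA in 2 samples labelled RDsh, with 75000 cells per sample. The labels do not say which of the H1 genes the shRNA targets, nor whether the replicates are separate cultures. For these 4 samples 1 list was analysed, and its track line names RDsh and another shRNA under a name that the labels do not use. The name of the list pairs multiH1sh with RDsh and holds the word differential. That this other shRNA is the multiH1 knock-down was taken from that pairing. How the list was made differential is not stated. Whether a listed or missing summit reflects openness or a difference between the groups was not tested. The list has no value per sample, so no value below compares knock-down with control, no spread between replicates can be given, and the depletion of H1 could not be checked. Fold enrichment and p-value of each summit are the authors'. Together they gave the number of reads at the summit over a background of 2.01 reads common to all summits solved. The fold of a summit is therefore a multiple of that background, not of the control cells. The lowest listed summit had 10 reads and the median summit 15, so a site with fewer than 10 reads is absent from the list. Read counts are given with exact 95% Poisson intervals, which cover counting error only, as PCR copies of 1 molecule may be counted more than once.

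The promoter sequences are shown first, because they separate the H1 genes of chromosome 6 from H1FX. RefSeq promoters of build GRCh38.p14 were matched for 7 of the 8 genes, all but H1F0. The 250 bases before the start are printed 5′ to 3′ on the gene's strand for HIST1H1A, HIST1H1C, HIST1H1E and H1FX. HIST1H1A and H1FX had listed regions in the rounded gene span, and HIST1H1C and HIST1H1E had none there. Capitals mark matches on either strand to AAACACA (the H1 box, an element known from H1 promoters), CCAAT (bound by NF-Y) and TATAAA (the TATA box). They lie at chr6:26017788-26018037 (HIST1H1A, minus strand), chr6:26056471-26056720 (HIST1H1C, minus strand), chr6:26156079-26156328 (HIST1H1E, plus strand) and chr3:129316287-129316536 (H1FX, minus strand). These are GRCh38 positions and were not carried over to the hg19 positions of the list.
HIST1H1A: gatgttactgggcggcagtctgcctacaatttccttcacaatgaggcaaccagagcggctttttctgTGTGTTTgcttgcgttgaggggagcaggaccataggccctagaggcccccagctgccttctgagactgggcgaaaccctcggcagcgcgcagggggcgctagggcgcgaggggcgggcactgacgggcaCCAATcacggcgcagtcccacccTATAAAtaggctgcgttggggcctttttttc
HIST1H1C: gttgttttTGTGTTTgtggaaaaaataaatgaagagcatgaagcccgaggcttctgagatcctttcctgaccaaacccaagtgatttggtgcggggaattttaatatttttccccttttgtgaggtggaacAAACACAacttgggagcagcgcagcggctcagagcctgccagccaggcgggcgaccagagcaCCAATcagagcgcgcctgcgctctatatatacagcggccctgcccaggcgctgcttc
HIST1H1E: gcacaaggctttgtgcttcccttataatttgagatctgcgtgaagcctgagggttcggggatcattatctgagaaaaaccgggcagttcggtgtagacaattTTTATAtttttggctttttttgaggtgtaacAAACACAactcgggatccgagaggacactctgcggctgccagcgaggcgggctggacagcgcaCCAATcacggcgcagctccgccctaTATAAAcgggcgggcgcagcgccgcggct
H1FX: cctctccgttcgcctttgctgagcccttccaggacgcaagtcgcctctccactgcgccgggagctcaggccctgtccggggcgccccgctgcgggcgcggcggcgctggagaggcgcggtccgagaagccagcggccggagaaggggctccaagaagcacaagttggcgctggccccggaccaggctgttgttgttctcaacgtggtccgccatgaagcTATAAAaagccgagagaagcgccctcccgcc

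The H1 box and CCAAT stood together in all 6 promoters of chromosome 6, whereas H1FX had neither. Among all 35116 promoters of the table, 4.82% held AAACACA, 32.0% held CCAAT and 1.54% held both in the same 250 bases. The joint search for both was chosen after the single matches were seen. In HIST1H1B, HIST1H1C, HIST1H1D and HIST1H1E an H1 box on the gene's strand began 117 to 119 bases before the start, and in HIST1H1T 105 bases before it. CCAAT on the gene's strand began 53 to 57 bases before the start in these 5 genes. The distance from the first base of that box to the first base of CCAAT was 62 in HIST1H1C, 63 in HIST1H1E, 64 in HIST1H1D, 64 in HIST1H1B and 51 in HIST1H1T. HIST1H1A differed from them, as its AAACACA lay on the opposite strand, 183 bases before the start. TATAAA was present in HIST1H1A, HIST1H1D, HIST1H1E and H1FX, beginning 29 to 31 bases before the start, and in 10.7% of all promoters. In HIST1H1E a second TATAAA lay on the opposite strand. Only exact matches were counted, so the other promoters are not shown to lack a TATA box. Close to the start, HIST1H1B and HIST1H1T hold tatataag and HIST1H1C holds tatatata. TTTCGCGC (an E2F site) and ATTTGCAT (the octamer), each also searched on both strands, were in none of the 7, against 0.439% and 1.63% of all promoters. None of the matches overlapped another. The H1FX promoter had a GC content of 68.4% and 26 CpG, against medians of 58% and 11 over all promoters. The 6 promoters of chromosome 6 ranged from 46.8% GC in HIST1H1D to 60.8% in HIST1H1A, and from 10 to 19 CpG.

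**Figure D1:**
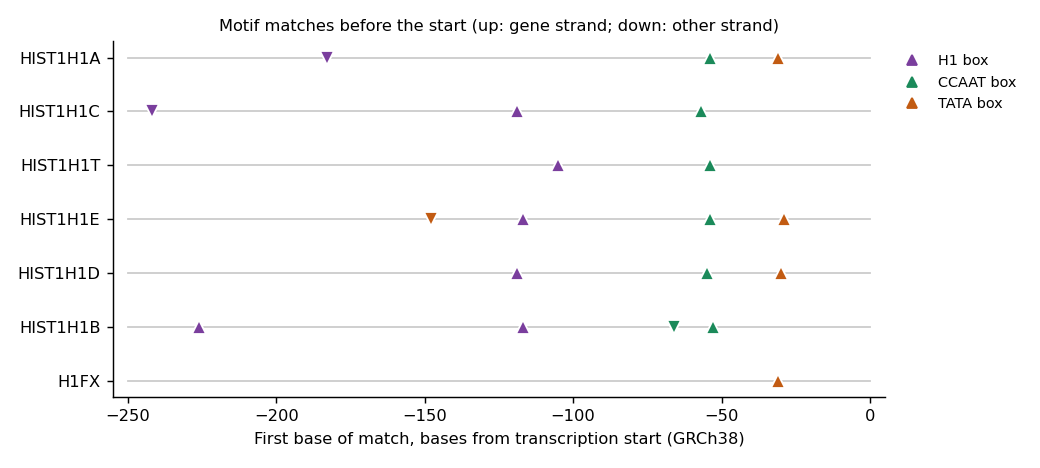
Positions of motif matches in the 250 bases before the transcription start of 7 H1 genes (x axis, bases from the start). Upward triangles are matches on the gene's strand and downward triangles on the other strand. CCAAT lines up in all 6 genes of chromosome 6, and the H1 box in HIST1H1B, HIST1H1C, HIST1H1D and HIST1H1E. Both are missing from H1FX.

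The 8 genes fell into a group with many listed summits, a group with few, and a group with none. H1FX had 22 summits, H1F0 had 6 and HIST1H1A had 5. HIST1H1C and HIST1H1B had 1 each, and HIST1H1D, HIST1H1E and HIST1H1T had none. Thus 5 of 8 windows held a summit (62.5%), against 23.2% of windows of 12 kb tiled over chromosomes 1 to 22 and X. On chromosome 6 it was 3 of 6, against 22.9% of such windows in the stretch of 6p22 from 26 to 28 Mb. The windows of H1F0 and H1FX both held summits, on chromosomes where 47.8% (chromosome 22) and 25.4% (chromosome 3) of windows did.

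**Figure D2:**
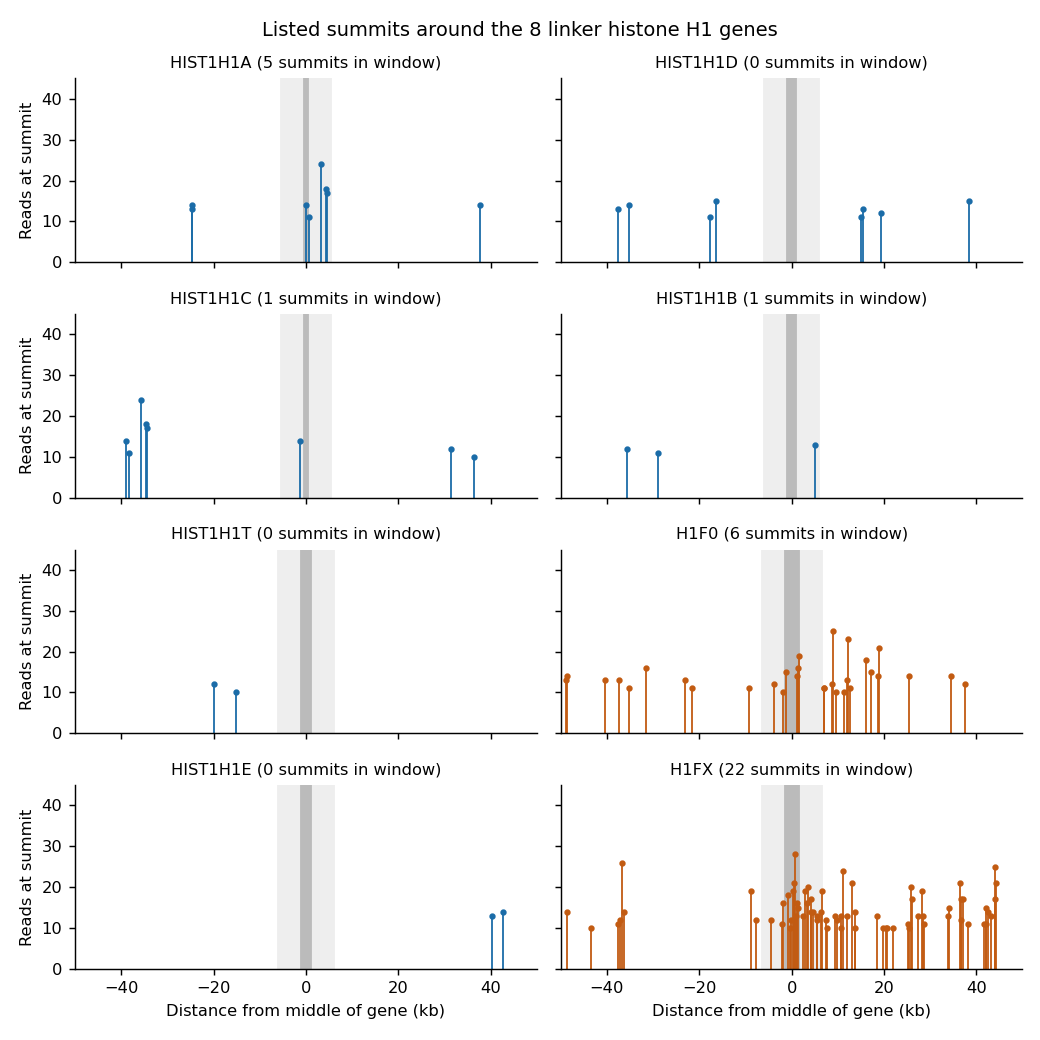
Listed summits within 50 kb of the middle of each H1 gene (x axis, kb) by reads at the summit (y axis). Dark grey marks the gene span and light grey the 5 kb on each side; H1FX stands in a dense stretch, while the nearest summit to HIST1H1E lies 39318 bp from its span.

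H1FX, the most divergent somatic-type variant of the family, had the densest window. Its 22 summits lay in 15 regions between 129028001 and 129041001 on chromosome 3, a density of 1692 per Mb (95% Poisson interval 1061 to 2562). Of windows of the same 13 kb length, 1.91% had as many. The widest region, from 129034675 to 129035775, lay inside the gene span and covered 1101 bp, and 5.08% of all regions were as wide. It held 5 summits, at 129034767, 129035054, 129035257, 129035462 and 129035673.

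The summit at 129035257 had 28 reads (18.6 to 40.5) and a fold of 9.64, the highest values in the 8 windows. Of all listed summits, 8.0% had as many reads. Its neighbour at 129035054 had 21 reads (13.0 to 32.1), and these intervals overlap. The outer summits of this region had 19, 13 and 16 reads. H1FX is transcribed from the minus strand, so that the region lay in the upper, 5′ part of the gene span.

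The next by reads in this window were the summit at 129038089 with 20 reads (12.2 to 30.9) and the summit at 129037361 with 19 reads (11.4 to 29.7). Both lay on the 5′ side beyond the span, where the gene table places the antisense gene H1-10-AS1. The remaining summits had 10 to 18 reads. In all, 9 summits lay in the span, 3 on its 3′ side and 10 on its 5′ side. The surroundings were dense too: 72 summits lay within 50 kb of H1FX. Of 38 windows of 13 kb tiled over the 250 kb on each side, 3 had 22 summits or more, and the median had 4. Some of these tiles overlap the window of H1FX, but none has its borders.

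H1F0, the gene of the replacement variant H1.0, had 6 summits in 4 regions from 38196001 to 38209001 on chromosome 22, or 462 per Mb (169 to 1005). They had 10 to 19 reads, around the median of 15 of all summits. The first summit inside the gene span, at 38201337, had 15 reads (8.40 to 24.7) in a region of 515 bp from 38200938 to 38201452. H1F0 is transcribed from the plus strand, so this region reached across the 5′ border of the span. A second region at the 3′ border, from 38203542 to 38204157, held 3 summits of 14, 16 and 19 reads. On the 5′ side, the summit at 38200698, 303 bp before the span, had 10 reads and the summit at 38198597 had 12. The strongest of the 6, at 38204033 with 19 reads (11.4 to 29.7), was thus at the 3′ border, where the gene GCAT follows, but its interval overlaps that of the summit at 38201337. With 6 summits the window was ordinary for its surroundings: 17 of 38 windows of that length within 250 kb on each side had as many or more.

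HIST1H1A, the gene of H1.1, was the only gene of chromosome 6 with more than 1 summit. It had 5, in 4 regions from 26012001 to 26023001, a density of 455 per Mb (148 to 1061), and 7.73% of windows of 11 kb had as many. A summit at 26017603 inside the span had 14 reads (7.65 to 23.5). Another, 195 bp beyond the span on the 5′ side at 26018196, had 11 reads (5.49 to 19.7).

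The stronger summits of this window lay farther out on the 5′ side. The summit at 26020798 had 24 reads (15.4 to 35.7), the one at 26021758 had 18 (10.7 to 28.4) and the one at 26022151 had 17 (9.90 to 27.2). The intervals of all 5 summits overlap. The gene table of GRCh38 places the core histone genes H3C1 (an H3 gene) and H4C1 (an H4 gene) on that side within 5 kb of HIST1H1A. Which of the 3 genes these summits belong to was not tested, as no hg19 annotation was used.

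HIST1H1C and HIST1H1B, the genes of H1.2 and H1.5, each had 1 summit, which lay outside the gene span and had fewer reads than the median of all summits. That of HIST1H1C, at 26055296 with 14 reads (7.65 to 23.5), lay 705 bp beyond the 3′ border, in a region of 167 bp. On the 5′ side of HIST1H1C the nearest summit, of 12 reads, lay 31009 bp away. That of HIST1H1B, at 27839982 with 13 reads (6.92 to 22.2), lay 3981 bp beyond the 5′ border. The neighbour on that side is the core histone gene H3C11. Of all listed summits, 66.9% had as many reads as the summit near HIST1H1C, and 76.0% as many as that near HIST1H1B.

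HIST1H1D, HIST1H1E and HIST1H1T, the genes of H1.3, H1.4 and the testis variant, had no summit in their windows. The nearest lay 14096 bp from HIST1H1D with 11 reads, 14096 bp from HIST1H1T with 10 reads, and 39318 bp from HIST1H1E with 13 reads. HIST1H1T and HIST1H1E shared a stretch of 104246 bp without any listed region, from 26093047 to 26197292. Such stretches were common, since 60.4% of the listed span of chromosomes 1 to 22 and X, centromere gaps included, and 73.4% of that of chromosome 6 lay in stretches at least as long. HIST1H1D lay in a stretch of 31205 bp without listed regions. Sites under 10 reads are not listed, and whether every site at or above that level is listed is not known. The absence of a summit therefore does not give the reads at these genes, and their chromatin is not shown to be closed.

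**Figure D3:**
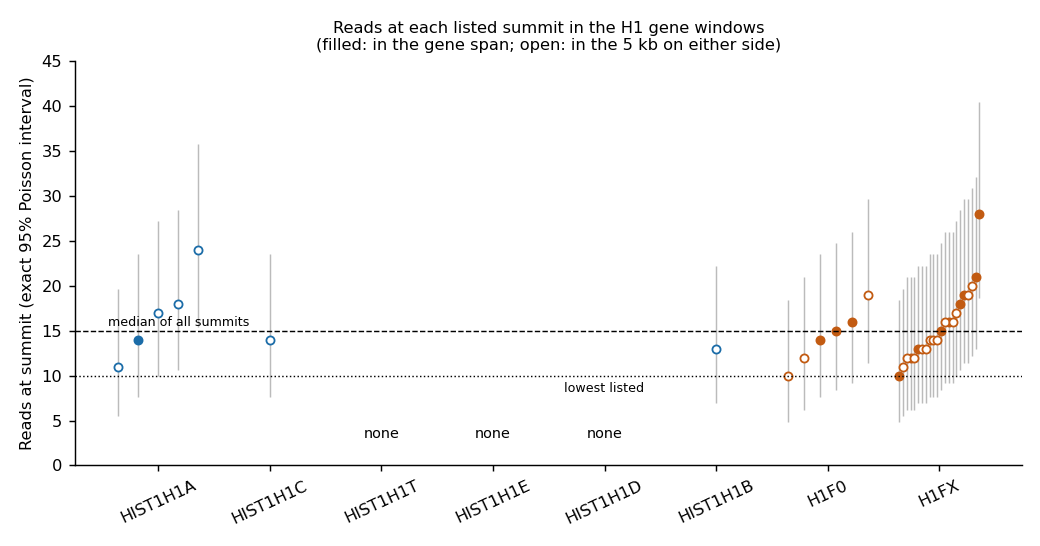
Reads at every listed summit in the 8 windows (y axis), with exact 95% Poisson intervals, by gene; filled points lie in the gene span and open points in the 5 kb on either side. Most of the 35 points lie near the median of all summits (15 reads, dashed), and the intervals of most reach below the lowest listed value (10 reads, dotted).

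The counts of 4 of the 8 genes changed with the reach of the window. With 10 kb on each side H1FX had 32 summits and H1F0 had 13, and the 8 genes together had 52. The summit nearest outside lay 5092 bp from the span of H1FX with 19 reads and 5474 bp from that of H1F0 with 11 reads. In the 6 genes of chromosome 6 none was closer than 14096 bp, so that a reach of 10 kb added none to them. The farthest summits inside lay 4830 bp from H1FX with 14 reads and 4150 bp from HIST1H1A with 17 reads. With 2 kb on each side H1FX had 14 summits, H1F0 had 5, HIST1H1A had 2, HIST1H1C had 1 and HIST1H1B had none.

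The summits near H1 genes had a median of 14 reads, against 15 for all summits. They ranged from 10 to 28 reads, and 4 of 35 had 20 reads or more (11.4%), against 26.5% of all summits. Of these 4, H1FX had 3 and HIST1H1A had 1. In the 6p22 stretch the median was 13 reads, and 9 of 67 summits (13.4%) had 20 or more.

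Over all 8 windows, summits stood at 365 per Mb, against 124 per Mb of the whole list, a ratio of 2.95 (95% Poisson interval 2.06 to 4.10). Summits of 1 region are not independent, so this interval is too narrow. The ratio rests on H1FX, and without it the other 7 windows had 157 summits per Mb, 1.27 times the whole list. The 6 genes of chromosome 6 had 7 summits in 70 kb, 0.81 times the density of the whole list but 2.99 times the 33.5 per Mb of the 6p22 stretch that surrounds them. That ratio in turn rests on HIST1H1A, and without it the other 5 genes had 2 summits in 59 kb, 1.01 times the stretch.

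Genes outside the set gave a scale for these counts. Their hg19 positions, and the luminal and housekeeping starts, were written from general knowledge to the nearest kb, and windows reached 5 kb to each side. Of the other linker histone genes, HILS1 (known from spermatids) had 39 summits, H1FOO (known from oocytes) had 17 and H1FNT (known from testis) had 2. The windows of the germline genes HILS1 and H1FOO, of 13 and 18 kb, thus had more summits than each of the 6 H1 genes of chromosome 6. Of the 39 summits of HILS1, 7 lay in its span, and of the 17 of H1FOO, 12 did. Chromosome 17, with HILS1, held 493 summits per Mb, chromosome 3, with H1FOO, 125 and chromosome 6 held 48.5. Starts of genes that serve the supply of histones all held summits: SET (a histone chaperone) had 8, NPAT (the coactivator of replication-dependent histone genes) had 4, NASP (a chaperone of H1 and H3) had 2 and CASP8AP2 (a factor of histone gene transcription) had 2. Their reads differed between genes, from 22 to 53 at NPAT and 20 to 27 at CASP8AP2 to 12 at NASP and 10 to 16 at SET, against 10 to 28 near the H1 genes.

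Housekeeping starts held a summit in 7 of 8 windows, from 1 at B2M to 35 at ACTB, and 57.7% of their summits had 20 reads or more. GAPDH, a gene known to be transcribed in nearly all cells, had none, so a housekeeping start can lack a listed summit. Transcription of these genes in the cells used was not measured. Starts of genes of luminal breast cells, the type from which T47D derives, held a summit in 7 of 7 windows. There were 33 at GATA3, 26 at KRT8, 20 at FOXA1, 20 at KRT18, 7 at PGR, 3 at ESR1 and 1 at XBP1. The windows of the luminal, housekeeping and histone supply starts were 11 kb long, and 22.2% of tiled windows of that length held a summit. No test was made between these lists, whose windows differ in length and chromosome.

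**Figure D4:**
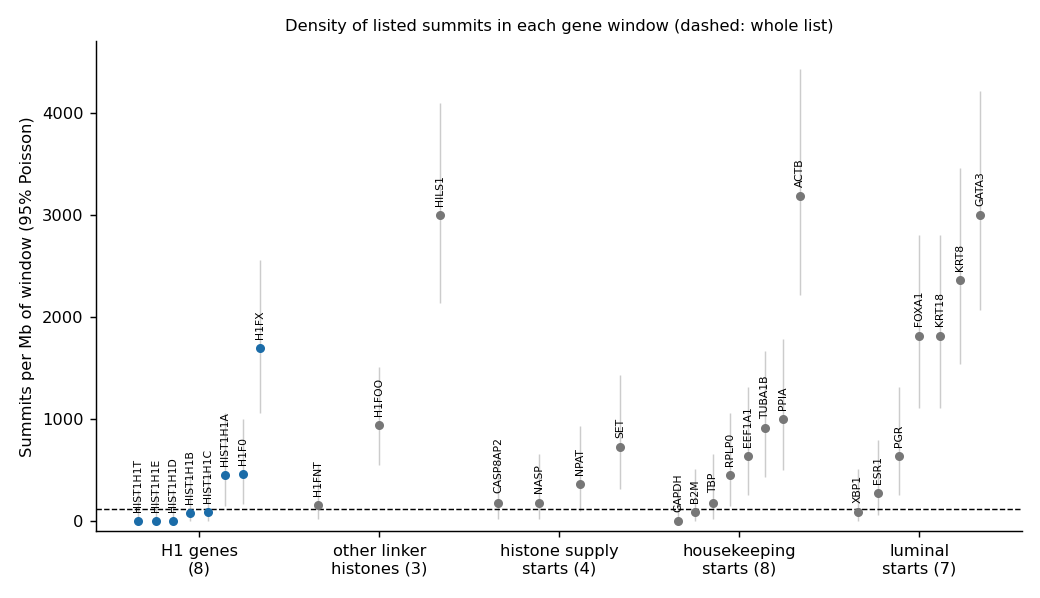
Listed summits per Mb of window (y axis) for each gene, in 5 lists, with 95% Poisson intervals; the dashed line is the whole list at 124 per Mb. Of the H1 genes H1FX stands highest at 1692, HIST1H1A at 455 and H1F0 at 462, and the other 5 below the line.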

How the data were processed

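For the 4 ATAC-seq samples the submitters' processing notes name Bowtie 1.1.2, MACS2 and the build hg19. Options of MACS2, duplicate handling, pooling of samples and total reads are not stated there. The authors deposited 1 narrowPeak list, with fold enrichment as a ratio, −log10 p, and a score, per the file headers and values.

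Gene windows used column positions from 0, and are printed from 1. Gene spans are rounded to kb, so distances to their borders are approximate. For 5 neighbouring pairs of genes the spacing differed from that in the GRCh38 gene table by at most 304 bp. Reads were recovered as the whole number k for which fold = (k + 1)/(background + 1) and the Poisson tail gave the listed p. The same k followed from the common background in all 370150 summits solved. The solver was tested on simulated data. Tiles of 11 to 18 kb covered the span from first to last region. Named were the 8 genes, each with its summits (over 10, the 5 with most reads), 5 motifs, and the lists of linker histone, histone supply, housekeeping and luminal genes. Members and lists were chosen with earlier results of these data known. Alternatives covered reach, reads, fold, regions counted once, overlap and genes left out. Python 3.11.15, numpy 2.4.6, scipy 1.17.1, pandas 2.3.3 and matplotlib 3.10.9 were used.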

Additional observations from a re-analysis of the deposited data

How the results depend on the processing

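The 35 summits became 22 with a reach of 2 kb, 4 at 20 reads or more, 17 at or above the median fold and 13 without H1FX. The median fold of 5.32 is that of 15 reads, and with ties 58.1% of all summits reached it. The 5 windows with a summit became 2 at 20 reads or more and 3 at or above the median fold. The density ratio of 2.95 became 1.27 at 20 reads or more and 1.27 without H1FX. For the genes of chromosome 6 against 6p22 it was 2.99, and 1.01 without HIST1H1A, an alternative chosen after seeing the data. Fewer summits or genes follow from how these alternatives are built, and the cause of the lower ratio at 20 reads or more was not tested. The median of 14 reads became 22.5 at 20 reads or more and 18 at or above the median fold. Both rises follow from filters that select on reads. Under the rest of the 7 alternatives run it was 14 or 15. Counting any overlap of a region changed none of the 4 results, and with each region counted once the 25 regions gave a ratio of 3.96. No paired analysis was possible because single samples have no values in the list, which also prevented leaving out a replicate. The lowest listed summit had 10 reads. Whether depth or a p-value threshold set this floor was not tested, and sites below it cannot be assessed.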
